A study of Rattus norvegicus with 5 samples.

Results

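This report concerns the knockdown of Smarcb1 in rat cortical neurons, compared with a control called GFP (green fluorescent protein) in the deposited tables. All rows of that comparison which carry an Ensembl rat gene identifier were taken, and the 4 rows that count reads assigned to no gene (unmapped, multimapping, without an annotated feature, or ambiguous between genes) were left out. This gave 15249 genes, of 16081 that appear in any of the study's 4 comparisons, and 56 of them were in no other table. The primary neurons of both groups were taken from rat embryos on day 18 and kept for 21 days in vitro. The knockdown neurons carried an shRNA (short hairpin RNA, which lowers a transcript by RNA interference) against Smarcb1. The labels list 1 sample for each of the 2 groups, and the same control served for knockdowns of Ehmt1, Mll3 and Mbd5. The strain, the sex of the embryos, the vector, the hairpin sequence and what the control neurons received besides the name GFP are not given in the sources used here.

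Smarcb1 encodes a core subunit of the BAF (SWI/SNF) complex, which uses ATP to slide or evict nucleosomes and so changes the access of transcription factors to promoters and enhancers. In the brain, the complex exchanges several of its subunits when progenitors become neurons, and the neuronal form is needed for dendrite growth and activity-dependent transcription. Variants in BAF subunit genes are a known cause of intellectual disability. The study's title and design place Smarcb1 among genes of Kleefstra syndrome, and the comparison addresses which transcripts differ in neurons when it is lowered.

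The comparison is deposited as 1 table with a mean normalized count, a log2 fold change, its standard error and p-values for each gene, and it holds no value of a single library. The number of libraries and whether they came from separate cultures are not given in the sources used here. If a group had several libraries, the p-values measure only the spread between them, which may be technical. If each group had 1 library, matching the 1 sample in the labels, the p-values would measure no spread within a group. The tables name genes by Ensembl identifier and do not pair these with gene names, so the level of Smarcb1 itself, which would check the label, was not analysed here. For the same reason the markers of neurons and of other cell types in the cultures were not analysed here. In RNA from whole cultures, fewer cells of a type and less RNA per cell cannot be told apart. The gene rows together held 11248017 normalized counts in the average library. A single gene with a mean of 2500602 held 22.2% of these, and the authors' deposited table puts its log2 fold change at 0.11 (SE 0.20, adjusted p-value 0.850 by the Wald test of DESeq2). The rows of reads assigned to no gene held 43.9% of all normalized counts. Reads without an annotated feature made up 14.8%, and their log2 fold change (knockdown over control) in the authors' deposited table was -0.47 (SE 0.20, adjusted p-value 0.122 by the same test). The part of these reads in the gene results was not tested.

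Which group a positive fold change favours is not stated in the table. The mean count and the fold change of a gene together imply a level for each group, if both groups contribute equally to the mean, and the control level should not differ between the tables. If a positive value means higher in the control, the log2 control level implied by the Smarcb1 table departed from the mean of the other 3 tables by an SD of 0.021 over 6648 genes. With the sign turned round the SD was 0.489. All fold changes are given here as knockdown over control. That turns the deposited sign round for Smarcb1, Mll3 and Mbd5. For Ehmt1 the deposited sign was kept, because the same comparison of control levels read it the opposite way. Both SDs rest on these signs for Ehmt1, Mll3 and Mbd5. The reading assumes that GFP, the name that recurs in every table, is the control.

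Most of the transcripts that were called changed were lower in the neurons with Smarcb1 shRNA. Among the 13474 genes with an adjusted p-value, the authors' deposited table has 1489 with a value under 0.05 (Wald test of DESeq2), which were called changed and make up 11.1% of the genes tested. Of the tested genes 8.39%, or 1130 genes, were called lower in the knockdown and 2.66%, or 359 genes, were called higher. The median log2 fold change over all genes was 0.01. Division by size factors places the typical gene near 0, so the table cannot show a shift common to most genes, and all changes are relative to that centre. Of the 11985 genes that were not called, 43.8% had a value below 0. The plot of fold change against mean count shows the longer tail of the calls on the lower side.

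**Figure D1:**
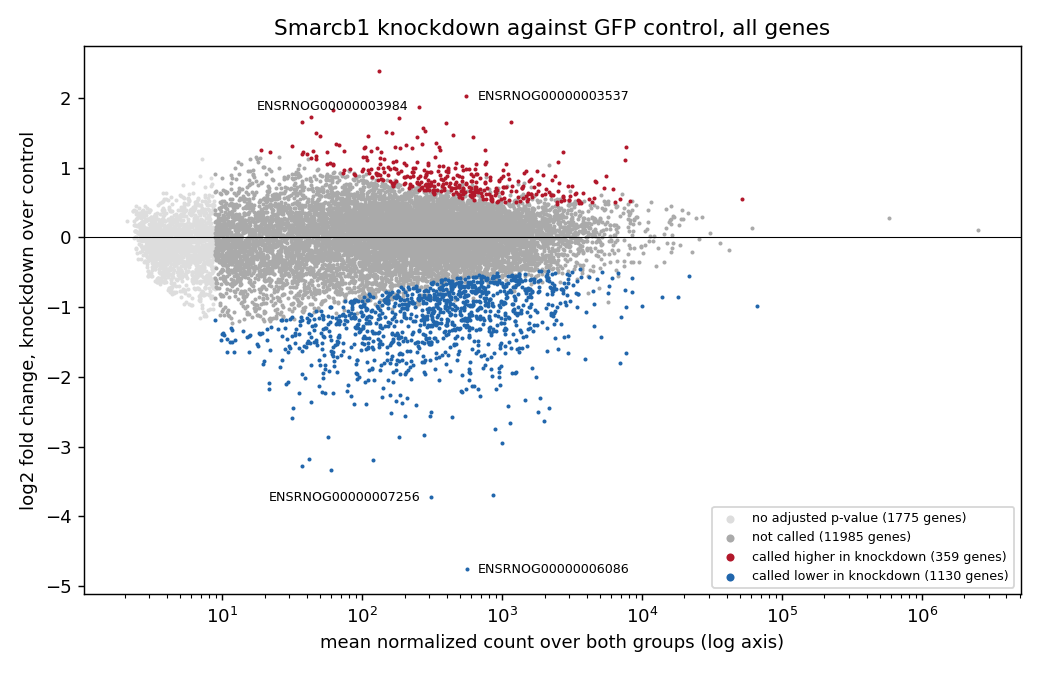
Log2 fold change (knockdown over control) of each of 15249 genes against its mean normalized count over both groups on a log axis, with genes called lower in blue, called higher in red and the others in grey. The blue points extend to -4.76 and the red points do not go beyond 2.39; the 4 genes described in the text are marked by their identifiers.

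Falls were also larger than rises. Genes called lower had a median log2 fold change of -1.13 (quartiles -1.46 and -0.84), and genes called higher had a median of 0.79 (quartiles 0.66 and 0.97). A change of at least 2-fold was reached by 60.4% of the lower genes and by 21.7% of the higher genes. At 4-fold or more there were 72 lower genes and 2 higher genes, and at 8-fold or more 7 lower genes and no higher gene. A single gene passed 16-fold, and it was lower. The median standard error was 0.25 on the log2 scale for the lower genes and 0.23 for the higher genes. No test of the 2 size distributions was made, because the genes of each were selected by the same values.

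**Figure D2:**
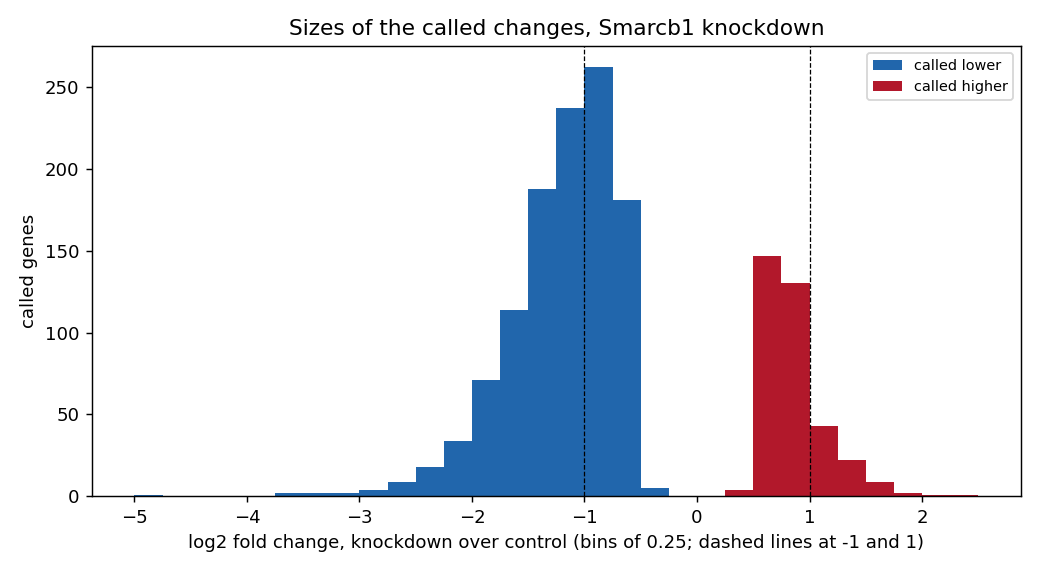
Number of called genes in bins of 0.25 of the log2 fold change (knockdown over control), lower genes in blue and higher genes in red, with dashed lines at -1 and 1. Most of the 1130 lower genes lie beyond -1 and most of the 359 higher genes lie below 1.

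The precision of each gene limits what these calls cover. The 95% interval of the log2 fold change (1.96 standard errors to each side, not adjusted for the number of genes) lay wholly between -1 and 1 for 9015 genes, or 66.9% of those tested. A change of 2-fold or more in either direction was outside the interval of these genes, and 132 of them were nevertheless called, 72 lower and 60 higher. No standard error exceeded 0.446, even for the rarest genes, so an interval of this kind can also arise from few counts. It was found for 26.5% of the tested genes with means of 8.82 to 24.1. For such rare genes it does not exclude a 2-fold change. The interval lay wholly below -1 for 220 genes and wholly above 1 for 10 genes. For the remaining 4229 genes the interval included -1 or 1, so whether their change reached 2-fold is not settled at this precision, and 1127 of these genes were called. Among genes that were not called, 80 had a value of at least 1 in size, 67 of them below 0.

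Transcripts of all abundances took part. The tested genes were divided into 10 groups of equal size by mean normalized count, from means of 8.82 to 24.1 in the lowest group up to means of 1322 and more in the highest. Lower calls outnumbered higher calls in all 10 groups. In the lowest group 2.30% of genes were called lower and 0.148% higher, and in the highest group 11.2% were called lower and 5.27% higher. The excess of lower over higher calls was thus 15.5 to 1 among the rarest transcripts, where it rested on 31 and 2 genes. Among the most abundant it was 2.13 to 1, with 151 and 71 genes. Between these ends the excess did not fall steadily, at 2.59 to 1 in group 6 and 3.60 to 1 in group 9.

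Rare transcripts were measured with less precision, which sets the size a change needed to be called. The median standard error fell from 0.44 in the lowest group to 0.18 in the highest, and the smallest called change went from 1.19 to 0.45 on the log2 scale. Over called and uncalled genes together, the 5th percentile lay farther from 0 than the 95th in all 10 groups. In the lowest group these percentiles of the log2 fold change were -1.01 and 0.61, and in the highest group they were -0.91 and 0.55. The group medians were -0.085 and -0.044 in the lowest pair of groups and between 0.025 and 0.053 in the other 8. The standard error did not exceed 0.446 even for the rarest genes, as it would under a prior that pulls fold changes toward 0. Changes of rare transcripts may therefore be understated. Such a prior would also pull in the changes and intervals of more abundant genes to a lesser degree, the 4 genes named below included. Its effect on the values was not tested.

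**Figure D3:**
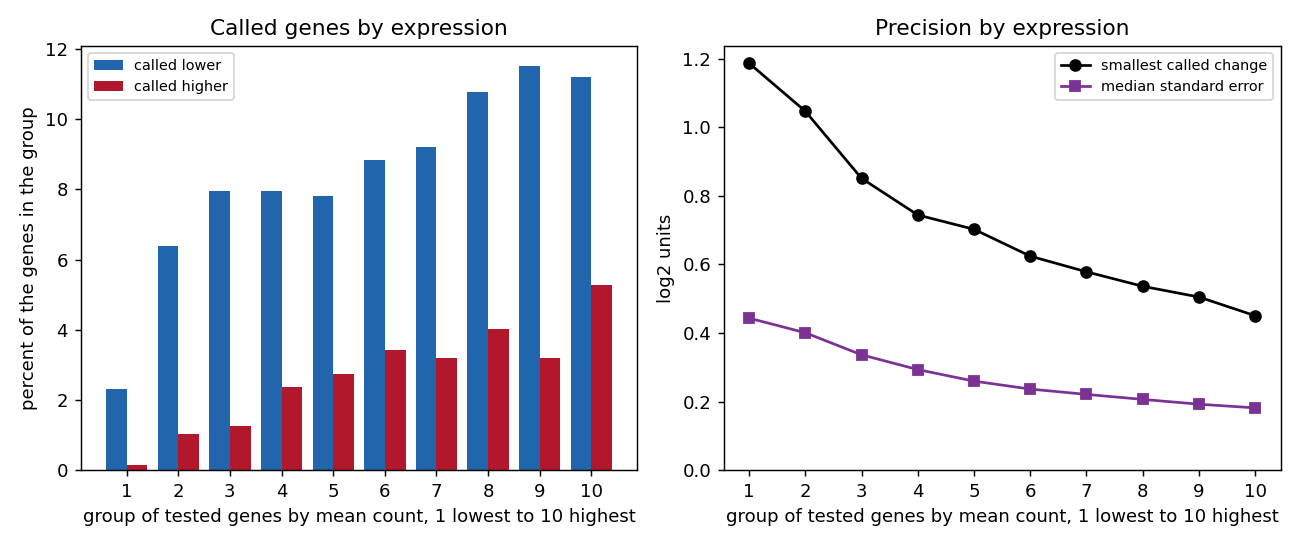
Left, percent of the genes in each of 10 groups by mean normalized count that were called lower (blue) or higher (red) in the knockdown; right, the smallest called change in size and the median standard error in the same groups, in log2 units. Lower calls exceed higher calls in each group, while the smallest called change goes from 1.19 in the lowest group to 0.45 in the highest.

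The part of the gene-assigned normalized counts that the called genes held was also computed. These counts are not corrected for transcript length, so the parts are shares of reads and not of transcript molecules. From the implied group levels, the 1130 lower genes made up 10.6% of all gene-assigned normalized counts in the control and 5.29% in the knockdown, a ratio of 0.498. The 359 higher genes made up 2.56% in the control and 4.13% in the knockdown, a ratio of 1.61. These parts are descriptions, since the genes were chosen by the same fold changes, and they rest on equal contributions of the 2 groups to the means.

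Single genes show the extent of the changes. They are the 2 largest falls and the 2 largest rises among called genes whose mean count reached the median of 190. For each, the implied level is given in parts per 1000000 gene-assigned normalized counts of its group (ppm). ENSRNOG00000006086 stood at 95.8 ppm in the control and 3.50 in the Smarcb1 knockdown. The authors' deposited table puts its log2 fold change at -4.76 (SE 0.25, adjusted p-value 1.36e-76 by the Wald test of DESeq2), which is a 27.1-fold lower level and the largest change of the comparison in either direction. ENSRNOG00000007256 stood at 51.4 ppm in the control and 3.84 in the knockdown. The authors' deposited table puts its log2 fold change at -3.72 (SE 0.27, adjusted p-value 3.19e-40 by the same test), a 13.2-fold lower level.

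The 2 rises were smaller. A rise of 2.39 in a rarer gene (mean count 131) exceeded both, but lay below the median abundance. ENSRNOG00000003537 stood at 19.6 ppm in the control and 78.6 in the knockdown. The authors' deposited table puts its log2 fold change at 2.02 (SE 0.21, adjusted p-value 3.70e-19 by the Wald test of DESeq2), a 4.06-fold higher level. ENSRNOG00000003984 stood at 9.76 ppm in the control and 35.2 in the knockdown, and the authors' deposited table puts its log2 fold change at 1.87 (SE 0.25, adjusted p-value 5.13e-12 by the same test), a 3.65-fold higher level. The 95% intervals of the 4 changes were -5.25 to -4.27, -4.25 to -3.20, 1.61 to 2.43 and 1.39 to 2.35, and none of them included a 2-fold change.

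The same 4 genes are set beside their values in the other knockdowns, which share the control with the Smarcb1 comparison and were normalized separately. The share of all genes called in those knockdowns was not computed here, so calls there are given without that background. For ENSRNOG00000006086 the implied control level was 95.8 ppm in the Smarcb1 table and between 93.3 and 97.0 in the other 3, while the knockdown level was 3.50 with Smarcb1, 15.9 with Mll3, 53.4 with Mbd5 and 104 with Ehmt1. Its log2 fold changes in the authors' deposited tables were -2.55 for Mll3 (SE 0.38, called), -0.78 for Mbd5 (SE 0.18, called) and 0.24 for Ehmt1 (SE 0.17, not called). ENSRNOG00000007256 had implied knockdown levels of 3.84 ppm with Smarcb1, 15.99 with Mll3, 14.0 with Mbd5 and 38.2 with Ehmt1, against control levels of 50.4 to 51.5. Its log2 fold changes in the authors' deposited tables were -1.69 for Mll3 (SE 0.26, called), -1.80 for Mbd5 (SE 0.21, called) and -0.28 for Ehmt1 (SE 0.19, not called). Both genes had entered the reading of the signs, so their close control levels are no separate check of that reading. Both had their lowest implied level with Smarcb1 knockdown, but they were chosen for their falls in that comparison, which favours this order. The difference between knockdowns was not tested.

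The 2 rises were likewise chosen by their Smarcb1 values. ENSRNOG00000003537 stood at 78.6 ppm with Smarcb1 knockdown and at 27.4, 22.4 and 19.7 with knockdown of Mll3, Mbd5 and Ehmt1, against control levels of 18.5 to 19.6. It was called in the Smarcb1 comparison and in none of the others, where the log2 fold changes in the authors' deposited tables were 0.55 (SE 0.33) for Mll3, 0.31 (SE 0.23) for Mbd5 and 0.24 (SE 0.23) for Ehmt1. The difference between knockdowns was not tested for this gene either. ENSRNOG00000003984 was also called higher with Mbd5, at 30.8 ppm, and with Mll3, at 21.2, and its value with Ehmt1 was 7.44, against control levels of 8.75 to 10.4. The log2 fold changes of this gene in the authors' deposited tables were 1.62 (SE 0.22) for Mbd5, 1.16 (SE 0.35) for Mll3 and -0.089 (SE 0.26) for Ehmt1. Neither of these 2 genes had entered the reading of the signs, because their means were below 200 in at least 1 table. Relative to their level, the implied control levels of ENSRNOG00000003984 (8.75 to 10.4 ppm) lay farther apart than those of ENSRNOG00000003537 (18.5 to 19.6).

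**Figure D4:**
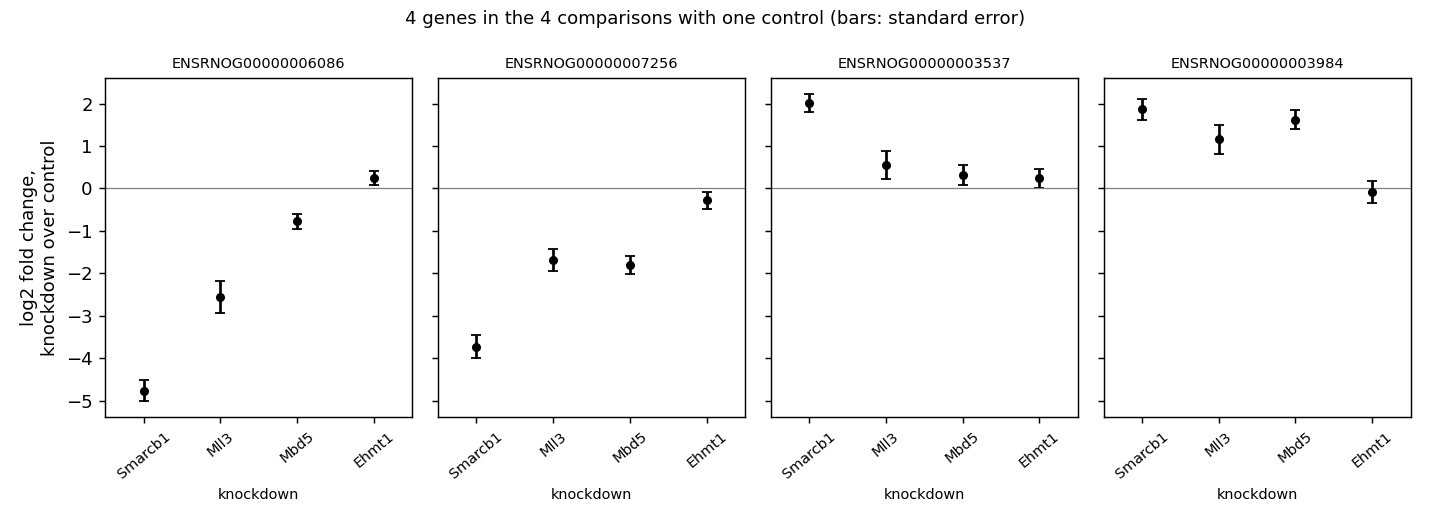
Log2 fold change (knockdown over control) of 4 genes in the comparisons of Smarcb1, Mll3, Mbd5 and Ehmt1 knockdown with one control, with bars of 1 standard error from the authors' deposited tables. The 2 genes on the left have their lowest value with Smarcb1 (-4.76 and -3.72), and the 2 on the right their highest (2.02 and 1.87), in the comparison by which they were chosen.

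The genes nearest to the threshold differed in size and in precision. The 3 genes just inside the threshold had adjusted p-values of 0.0498 in the authors' deposited table (Wald test of DESeq2), with log2 fold changes of 0.61, 0.76 and 1.22. The 3 genes just outside had adjusted p-values of 0.0502, 0.0503 and 0.0505 in the authors' deposited table by the same test, with log2 fold changes of 0.55, 0.62 and 0.66. All 6 were higher in the knockdown, and the gene with 1.22 was the rarest of them, with a mean count of 21.7.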

How the data were processed

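Paired-end RNA sequencing of rat primary cortical neurons was done on a NextSeq500, per the labels' protocols. Reads were aligned with STAR 2.5.2b to Rnor_6.0 and compared with DESeq2, per the submitters' processing notes. Counting and filters are not given in the sources used here. The deposited mean is a signal: counts divided by size factors, averaged over the libraries, per the file headers. The authors also deposited a log2 fold change with its standard error, a Wald score (in every row the fold change divided by its error), a two-sided p-value and a Benjamini-Hochberg adjusted p-value over rows with a mean of at least 8.82. The depth of single libraries is unknown.

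Calls are the authors' own, so no count test was run. Signs were read from 16 combinations over the 4 tables, using genes with a mean of at least 200 in each; levels were computed as if control libraries contributed 0.5 of each mean. The procedure was tested on simulated data. There the fold changes were not pulled toward 0 and the comparisons were not normalized separately, so the test does not cover these traits of the data. Python 3.11.15, pandas 2.3.3 and numpy 2.4.6 were used. The genes named are the 2 largest called rises and falls with a mean count no lower than the median. The rule had asked for more genes and for gene symbols, but no reference row held an identifier of the tables, so the 37 gene lists and the promoter sequences were not used here. The comparison and the lists were chosen with earlier results of these data known. Alternatives were other thresholds, a minimum fold change, an abundance filter, another adjustment, centring and the sign.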

Additional observations from a re-analysis of the deposited data

How the results depend on the processing

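The number of changed genes was within 1.5 times of 1489 at an adjusted p-value under 0.01 or 0.1, among genes of at least median abundance, and with a Benjamini-Hochberg adjustment over every gene row. It was 760 when changes under 1 on the log2 scale were dropped, because fewer genes meet both conditions. Lower genes made up 83.7% of the calls at 0.01, 71.8% at 0.1, 89.7% with the minimum fold change and 73.0% among genes of at least median abundance; the cause was not tested, and lower genes were the majority in each. With the sign as deposited it would be 24.1%, by construction. Centring shifted values by 0.01 without remaking the calls, too little to bear on the 4 named genes or on the split. The same reading of the signs came first at minimum means of 50 and 1000. Control shares of 0.4 and 0.6, and leaving out the most abundant gene, were added after seeing the data. The ratio of signal parts then stayed between 0.497 and 0.507 for lower genes and between 1.61 and 1.64 for higher genes. The parts themselves moved more. Without the most abundant gene, lower genes held 13.5% in the control and 6.86% in the knockdown, and higher genes 3.26% and 5.36%. The control part of the lower genes was 11.4% at a share of 0.4 and 9.96% at 0.6. Counts by gene list and promoter features were not run. No paired analysis was possible because the table holds no library values, and for the same reason no library could be left out. The depth of single libraries is unknown.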

Other observations

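The adjusted p-value is blank in the table for 1775 rare transcripts, whose mean counts were 8.81 or less. Of these, 41 had an unadjusted p-value under 0.05 by the deposited Wald test, 39 of them lower and 2 higher in the knockdown. The 41 genes are a share below 0.05, the share expected without any change if the p-values are evenly spread. Whether the p-values of such rare genes are spread in that way is not known, so no conclusion is drawn from the share. Their split by direction is a description and was not tested. The log2 fold changes of all 1775 were at most 1.16 in size. Among the 13474 tested genes, 2862 had an unadjusted p-value under 0.05 by the same test, 1807 lower and 1055 higher.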
